A study of Mus musculus with 7 samples.

Results

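The 10 genes described here encode 6 EphA receptors (*Epha3*, *Epha4*, *Epha5*, *Epha6*, *Epha7* and *Epha8*) and 4 ephrin-A ligands (*Efna2*, *Efna3*, *Efna4* and *Efna5*). They were chosen by their gene symbols and not by a cut on their values, though with earlier results of these data known. Of the 52636 genes counted in each library, 21817 passed the filter and were tested, among them all 10 members. RNA was taken from the dorsal midbrain of newborn mice in which *Brn3b* (*Pou4f2*), a POU-homeodomain transcription factor of superior colliculus neurons, was either kept on 1 allele or removed. The 3 control mice were *Brn3b* flox/+ with *En1-Cre*, and the 4 *Brn3b* cKO mice were *Brn3b* flox/- with *En1-Cre*. *En1-Cre*, which drives Cre in the midbrain and hindbrain, and the conditional allele, which makes alkaline phosphatase after recombination, were therefore shared by both groups. Controls were sampled at P4 (A2, A6) or P3 (A4) and cKO mice at P4 (B1, B8) or P2 (B7, B9), so that no control was at P2 and no cKO mouse at P3.

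EphA receptors are tyrosine kinases on the cell surface, and ephrin-A proteins are their ligands, held in the membrane of the neighboring cell by a lipid anchor. Contact usually repels a growing axon. In the superior colliculus, ephrin-A2 and ephrin-A5 are known to be more abundant at the posterior than at the anterior end, and retinal axons, which carry EphA receptors in a gradient across the eye, use these levels to find their place in the map of visual space. Collicular cells make EphA receptors too, and signals can run in both directions across the contact. Because whole dorsal midbrain was sequenced, a gradient within the colliculus is not seen in these values, and fewer cells of a type and less RNA per cell cannot be told apart.

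*Brn3b* itself had 46.5, 47.4 and 45.8 CPM (counts on the gene scaled to the library total) in controls and 9.65, 9.67, 10.6 and 11.6 CPM in cKO mice, a log2 fold change of -2.16 (SE 0.13, edgeR adjusted p = 5.7e-04), in the direction of the labels. Each library held 23588248 to 87572085 counts on genes, and a member drew between 38 and 14445 counts in a library. Markers of the dorsal midbrain were present in every library, with a summed level of 490 to 549 CPM over 8 genes in controls and 486 to 666 CPM in cKO mice. The thalamus, cerebellum and telencephalon lists summed to 427 to 466, 224 to 275 and 142 to 169 CPM in controls. In cKO mice they summed to 394 to 503, 210 to 300 and 133 to 183 CPM. These sums therefore do not show how much neighboring tissue was included. The neuronal markers summed to 4650 to 5500 CPM in controls and 3700 to 4710 CPM in cKO mice, and the astrocyte markers to 632 to 639 and 659 to 797 CPM. The red blood cell markers summed to 124 to 442 CPM in controls, 158 and 168 CPM in B1 and B8, and 53.9 and 53.7 CPM in B7 and B9. The microglial markers summed to 88.9 to 117 CPM in controls, 88.8 and 93.4 CPM in B1 and B8, and 72.7 and 75.3 CPM in B7 and B9. The markers of the oligodendrocyte lineage summed to 346 to 401 CPM in controls, 404 and 412 CPM in B1 and B8, and 326 and 293 CPM in B7 and B9. No gene of the 13 marker lists passed the edgeR test with all 7 mice, which called 0.00458% of all genes, while 3 of 6 neuronal and 3 of 8 dorsal midbrain markers had an unadjusted p under 0.05, beside 30.4%. Their part in the results below was not tested. One library stood apart. On the first principal component of all tested genes, which held 60.1% of the variance, B1, B7 and B9 lay at 49.4 to 78.7, whereas B8, labelled as a cKO and low in *Brn3b*, lay at -42.2 among the controls at -81.2 to -33.3. Results are therefore given with and without B8.

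Levels were first compared between genes as RPKM, the CPM divided by the length of the exons. Among the 6 receptors in controls, *Epha8*, whose product is known to be made by cells of the dorsal midbrain, was the highest at 25.4 ± 2.66 RPKM (SD, n = 3). *Epha4*, the receptor that also binds ephrin-B ligands, followed at 10.5 ± 1.09 RPKM, *Epha5* at 10.2 ± 0.591 RPKM and *Epha7* at 9.52 ± 0.501 RPKM. The ranges of these last 3 genes over the control mice overlapped, so no order among them was resolved. *Epha3* at 0.982 ± 0.0747 RPKM and *Epha6* at 0.781 ± 0.283 RPKM were lower than the others in each mouse, and their ranges also overlapped.

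Of the ligands, *Efna2* was above every receptor and *Efna4* was near the lowest ones. *Efna2* had 48.5 ± 5.29 RPKM in controls (SD, n = 3), *Efna3* had 28.4 ± 1.34 RPKM, *Efna5* had 17.9 ± 2.17 RPKM and *Efna4* had 1.44 ± 0.552 RPKM, with no overlap between neighbors in this order. In cKO mice the order changed. *Efna2* had 31.1 ± 5.55 RPKM (SD, n = 4), while *Efna5* at 19.6 ± 4.51 RPKM and *Efna3* at 18.6 ± 4.85 RPKM overlapped. *Efna3* was above *Efna5* in every control and in both P4 cKO mice. It was below *Efna5* in both P2 cKO mice, at 15.9 against 21.6 RPKM in B7 and 14.3 against 24.4 RPKM in B9. Summed over the 4 ligands, the level was 96.1 ± 8.63 RPKM in controls and 70.5 ± 9.36 RPKM in cKO mice, where B8 held 84.4 RPKM. The 6 receptors, which leave out *Epha10* (given below), summed to 57.3 ± 3.39 RPKM in controls and 58.9 ± 5.67 RPKM in cKO mice.

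**Figure D1:**
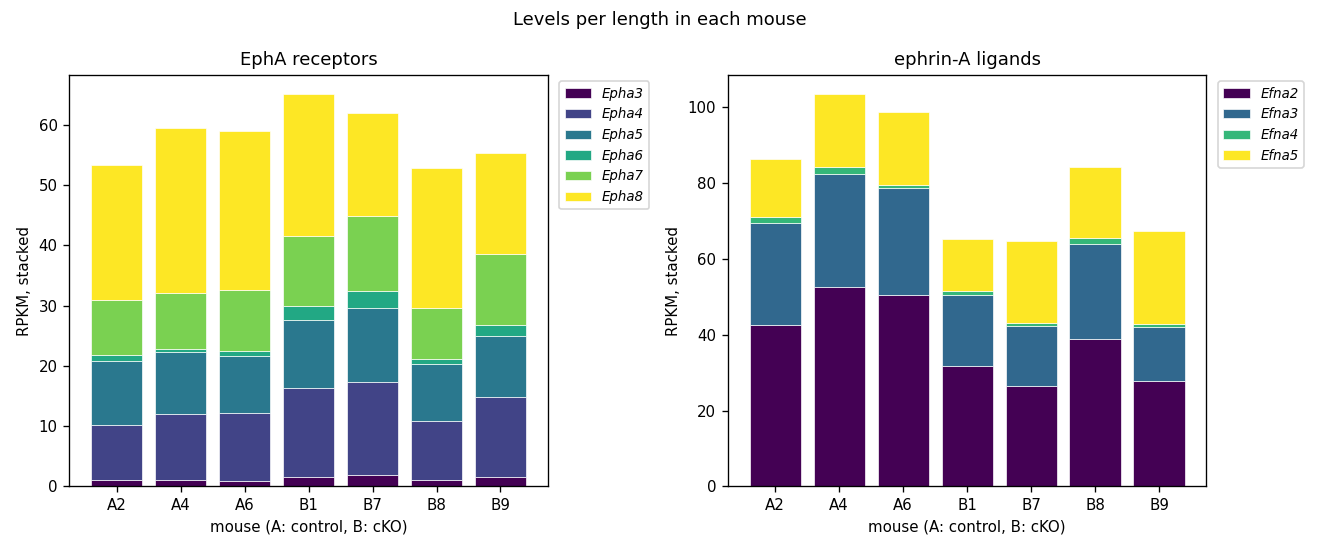
Level per length (RPKM, stacked bars from 0) of the 6 EphA receptors (left) and the 4 ephrin-A ligands (right) in the 3 control (A2, A4, A6) and 4 cKO mice (B1, B7, B8, B9). The receptor bars stay between 52.9 and 65.1 RPKM, and the ligand bars of the cKO mice, at 64.8 to 84.4 RPKM, are below those of the controls, at 86.4 to 103 RPKM.

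The make-up of both sums differed between mice. *Epha8* made up 42.0% to 46.0% of the receptor sum in controls and 43.9% in B8, but 36.1% in B1, 27.6% in B7 and 30.3% in B9. *Efna5* made up 17.8% to 19.4% of the ligand sum in controls, 21.1% in B1, 22.3% in B8, 33.3% in B7 and 36.2% in B9. The *Efna5* shares thus did not overlap between genotypes, and the largest were those of the P2 mice, although its own level overlapped between genotypes. In B1 its level, 13.8 RPKM, was below the 15.4 to 19.1 RPKM of the controls. Its share was above theirs there because the ligand sum was lower, at 65.3 RPKM against 86.4 to 103 RPKM. The shares therefore also carry the lower *Efna2* and *Efna3* and are not a result on *Efna5* alone.

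The members also differ in the size of their genes. On GRCm38, in GENCODE M21, *Epha3* (chromosome 16, 63543534 to 63864175), *Epha4* (chromosome 1, 77367185 to 77515088), *Epha5* (chromosome 5, 84054761 to 84417382), *Epha6* (chromosome 16, 59653483 to 60605531), *Epha7* (chromosome 4, 28813131 to 28967499) and *Efna5* (chromosome 17, 62604184 to 62881317) each span more than 100 kb. *Epha8* (chromosome 4, 136929419 to 136956816) and *Efna2* (chromosome 10, 80179482 to 80190010) span between 10 and 30 kb. *Efna3* (chromosome 3, 89313899 to 89322965) and *Efna4* (chromosome 3, 89333390 to 89338028) lie next to each other and span less than 10 kb. The values are counts over the exons of the whole gene. The exons of *Epha6*, *Efna3* and *Efna4* overlap those of a gene on the other strand (*Gm9017*, *Gm15998* and *4731419I09Rik*). The libraries were strand-specific, but the strand option of the counting is not given in the sources used here, so that counts of these 3 genes are uncertain to the extent that antisense reads were shared or dropped.

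The bases upstream of the start sites were read for letters that POU4F and Engrailed proteins are known to bind, since *Brn3b* was removed. RefSeq (GRCm38.p6) gives a start for all 10 genes, and the 250 bases before the start nearest to that of GENCODE were taken. The letters of the Brn3 consensus, ATAATTAAT, were in none of the 10 windows, against 0.259% of all 32851 promoter windows searched on both strands, and its core ATTAAT was in none, against 4.39%. The homeodomain core TAATTA, which overlaps the consensus, was in 1 window, that of *Epha5*, against 4.84% of all windows. A match is a description and not a binding site, and a window without one says nothing of the factor. Printed here 5′ to 3′ on the strand of the gene are *Epha5* (chr5:84417383-84417632, minus strand) with TAATTA in capitals, *Epha6* (chr16:60605532-60605781, minus strand), the receptor with the largest fold change, and *Efna2* (chr10:80179232-80179481, plus strand) and *Efna3* (chr3:89322940-89323189, minus strand), the 2 genes that separate the genotypes below.
*Epha5*: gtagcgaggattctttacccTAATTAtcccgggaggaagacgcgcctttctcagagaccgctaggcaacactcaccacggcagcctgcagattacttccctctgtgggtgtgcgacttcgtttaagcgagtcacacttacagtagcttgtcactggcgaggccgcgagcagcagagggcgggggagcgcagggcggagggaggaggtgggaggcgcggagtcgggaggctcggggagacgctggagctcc
*Epha6*: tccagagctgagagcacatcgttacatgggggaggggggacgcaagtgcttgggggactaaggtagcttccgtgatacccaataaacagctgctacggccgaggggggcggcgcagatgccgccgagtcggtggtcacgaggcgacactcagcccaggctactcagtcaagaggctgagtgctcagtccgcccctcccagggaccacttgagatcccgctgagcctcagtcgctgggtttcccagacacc
*Efna2*: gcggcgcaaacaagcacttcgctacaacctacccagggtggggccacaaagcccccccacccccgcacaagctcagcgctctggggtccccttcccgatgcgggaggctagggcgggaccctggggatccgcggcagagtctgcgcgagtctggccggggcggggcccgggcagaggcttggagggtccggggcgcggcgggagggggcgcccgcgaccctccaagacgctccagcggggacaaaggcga
*Efna3*: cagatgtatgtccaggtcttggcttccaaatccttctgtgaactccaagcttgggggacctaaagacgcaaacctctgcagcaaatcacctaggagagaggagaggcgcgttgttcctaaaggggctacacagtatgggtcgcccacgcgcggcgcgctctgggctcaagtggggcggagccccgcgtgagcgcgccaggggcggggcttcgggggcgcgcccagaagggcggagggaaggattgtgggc
These windows are rich in G and C, with 62.4% in *Epha5*, 62.8% in *Epha6*, 73.6% in *Efna2* and 63.6% in *Efna3*, against a median of 52.4% over all promoter windows. They hold 20, 15, 25 and 19 CpG pairs in the same order, against a median of 6.

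To ask whether loss of *Brn3b* in the midbrain goes with another level of these cues, the 4 cKO mice were compared with the 3 controls. *Efna2* and *Efna3* were lower in each cKO mouse than in each control, and 4 receptors (*Epha3*, *Epha4*, *Epha6* and *Epha7*) were higher than in each control in B1, B7 and B9 but not in B8. These 2 of 10 members without overlap stand beside 14.0% of all tested genes, and without B8 6 of 10 stand beside 56.2%. With all 7 mice, edgeR's quasi-likelihood test called none of the 10 members at an adjusted p under 0.05, where it called 0.00458% of all 21817 genes, that is *Brn3b* alone. At an unadjusted p under 0.05 there were 4 members (*Epha3*, *Epha6*, *Efna2* and *Efna3*), beside 30.4% of all genes. DESeq2, the tool of the study, called 3 of the 10 at an adjusted p under 0.05, beside 5.5% of 36248 genes. These are all genes with a DESeq2 p, including low ones that the edgeR filter left out. Those without an adjusted p count as not called. The DESeq2 shares here and below are therefore lower than they would be over genes at the level of the members alone. *Epha6* was called higher, as were 3.9% of all genes, and *Efna2* and *Efna3* were called lower, as were 1.6%. Without B8, edgeR called 7 members, beside 46.7% of 21122 genes. Of these, 4 were higher, beside 23.7% of all genes, and 3 were lower, beside 23.1%. DESeq2 also called 7 without B8, beside 27.8% of 35755 genes with a DESeq2 p. So did limma-voom with sample quality weights and all 7 mice, beside 48.5% of 21817 genes. The median log2 fold change was 0.12 over the members and 0.00 over all tested genes.

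**Figure D2:**
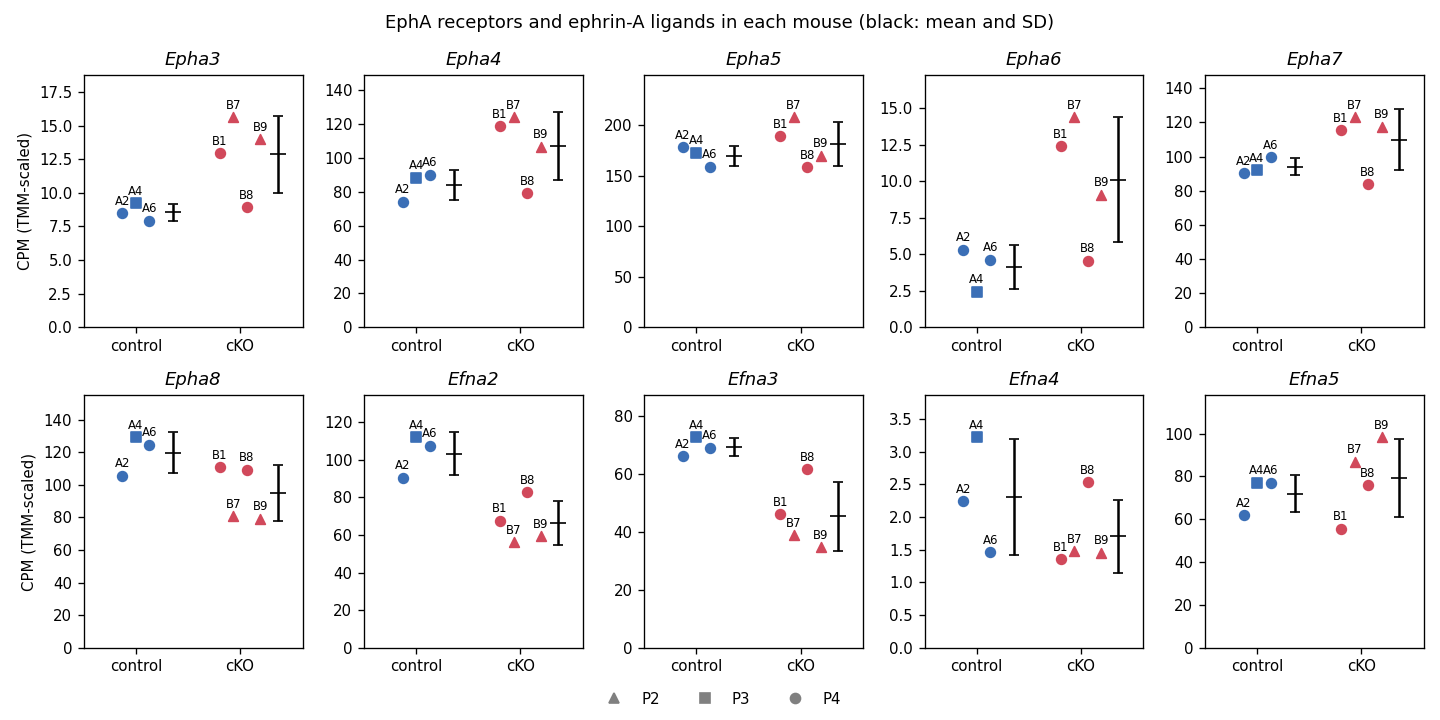
CPM (TMM-scaled, linear axes from 0) of each member in each mouse, with the age given by the symbol and the mean and SD of each group in black. *Efna2* and *Efna3* show no overlap between the 3 control and 4 cKO mice, and for *Epha3*, *Epha4*, *Epha6* and *Epha7* the B8 point lies among or below the controls while B1, B7 and B9 lie above them.

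Of the receptors, *Epha6*, a receptor also found on retinal ganglion cells, had the largest fold change. It had 5.31, 2.45 and 4.64 CPM in A2, A4 and A6 and 12.4, 14.4, 4.56 and 9.09 CPM in B1, B7, B8 and B9. The P4 mouse B1 and both P2 mice were above every control, and B8 lay between A4 and A6. Its log2 fold change was 1.30 (SE 0.41, 95% confidence interval 0.39 to 2.21, edgeR adjusted p = 0.138), and the adjusted p was 0.0257 with DESeq2. Without B8 it was 1.55 (SE 0.27, edgeR adjusted p = 7.1e-04).

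*Epha3*, a high-affinity receptor of ephrin-A5, showed the same arrangement of mice. It had 8.46, 9.22 and 7.92 CPM in controls and 13.0, 15.6, 8.92 and 14.0 CPM in B1, B7, B8 and B9. B8 was within the range of the controls, and the other cKO mice were above it. This gave a log2 fold change of 0.59 (SE 0.21, edgeR adjusted p = 0.138), and 0.73 (SE 0.15, edgeR adjusted p = 0.00207) without B8. Under the correction for GC content and lengths described below, *Epha3* came to 0.03 (edgeR adjusted p = 0.924), and to 0.02 without B8 (edgeR adjusted p = 0.93).

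*Epha4* and *Epha7* had smaller differences. *Epha4* had 74.2, 88.5 and 90.3 CPM in controls and 119, 124, 79.2 and 107 CPM in B1, B7, B8 and B9, with a log2 fold change of 0.35 (SE 0.17, edgeR adjusted p = 0.196). *Epha7*, which is made in the colliculus as well as in the retina, had 90.4, 92.1 and 99.7 CPM in controls and 115, 123, 83.7 and 118 CPM in B1, B7, B8 and B9, with a log2 fold change of 0.23 (SE 0.15, edgeR adjusted p = 0.325). In both genes B8 overlapped or fell below the controls. Without B8 the values were 0.46 for *Epha4* (edgeR adjusted p = 0.00573) and 0.33 for *Epha7* (edgeR adjusted p = 0.0165), and both turned below 0 under the correction for GC content and lengths described below.

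*Epha5*, a receptor graded across the retina, gave no detectable difference in these counts. It had 178, 173 and 159 CPM in controls and 189, 208, 159 and 170 CPM in cKO mice, and the groups overlapped with and without B8. The log2 fold change was 0.10 (95% confidence interval -0.20 to 0.39, edgeR adjusted p = 0.633). *Epha8* pointed the other way from the rest of the 6 receptors. It had 106, 129 and 125 CPM in controls and 111, 80.8, 109 and 79.1 CPM in B1, B7, B8 and B9. Both P2 mice were below every control, while both P4 cKO mice lay above A2. This gave a log2 fold change of -0.34 (SE 0.16, edgeR adjusted p = 0.191), and -0.41 (edgeR adjusted p = 0.0304) without B8. Under the correction described below, *Epha8* came to -0.06 (edgeR adjusted p = 0.751), and to -0.02 without B8 (edgeR adjusted p = 0.9).

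Of the ligands, *Efna2*, which encodes one of the graded cues of the colliculus, was lower in 4 of 4 cKO mice. It had 90.5, 112 and 107 CPM in A2, A4 and A6 and 67.5, 56.2, 82.6 and 59.2 CPM in B1, B7, B8 and B9. The groups did not overlap, and the mean of the cKO mice was 64.3% of that of the controls. The log2 fold change was -0.64 (SE 0.16, 95% confidence interval -1.0 to -0.28, edgeR adjusted p = 0.138), with a DESeq2 adjusted p of 0.0257. The exact permutation test gave a two-sided p of 0.0571, the smallest that the 35 splits of 7 mice allow. Without B8 the log2 fold change was -0.77 (SE 0.12, edgeR adjusted p = 3.4e-04). Under the correction described below, *Efna2* came to -0.17 (edgeR adjusted p = 0.315), and to -0.11 without B8 (edgeR adjusted p = 0.399).

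*Efna3*, whose product acts with ephrin-A2 and ephrin-A5 in retinal mapping, was the second gene without overlap. It had 66.0, 72.5 and 69.0 CPM in controls and 46.1, 38.7, 61.5 and 34.7 CPM in B1, B7, B8 and B9. B8 was the nearest of the cKO mice to the controls, and the mean of the cKO mice was 65.4% of that of the controls. The log2 fold change was -0.61 (SE 0.19, 95% confidence interval -1.04 to -0.18, edgeR adjusted p = 0.138), the DESeq2 adjusted p was 0.0495 and the two-sided exact permutation p was again 0.0571. Without B8 it was -0.80 (SE 0.12, edgeR adjusted p = 3.0e-04).

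*Efna5*, the other graded cue of the colliculus, did not separate the genotypes. It had 61.9, 77.1 and 77.1 CPM in controls, 55.6 and 75.8 CPM in the P4 cKO mice B1 and B8, and 87.0 and 98.3 CPM in the P2 cKO mice B7 and B9. The P2 mice were above every control, B1 was below every control and B8 was among them. The log2 fold change was 0.14 (95% confidence interval -0.30 to 0.57, edgeR adjusted p = 0.642), and 0.16 without B8, and it changed sign with postnatal day as a covariate, at -0.04. *Efna4*, a ligand also known outside the nervous system, was low, at 2.24, 3.22 and 1.46 CPM in controls and 1.35, 1.47, 2.54 and 1.46 CPM in B1, B7, B8 and B9. Its log2 fold change of -0.45 (95% confidence interval -1.22 to 0.33, edgeR adjusted p = 0.387) was within the spread between mice. It came to -0.70 without B8 (edgeR adjusted p = 0.0903), to -0.12 without A4, to -0.69 without A6 and to 0.09 among P4 mice only.

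Seen mouse by mouse, most of the differences lay in B1, B7 and B9, and neither receptors nor ligands moved as 1 group. The median log2 difference from the control mean over the 6 receptors was 0.40, 0.48 and 0.33 in B1, B7 and B9, and -0.09 in B8. Over the 4 ligands it was -0.60, -0.70 and -0.69 in B1, B7 and B9, and -0.04 in B8. In B7 and B9 the receptor *Epha8* was at -0.56 and -0.59 and the ligand *Efna5* at 0.28 and 0.46, against these medians. B8 was at -0.32 for *Efna2*, and B1 was at -0.11 for *Epha8*, within the range of the controls. The median over all tested genes was between -0.02 and 0.02 in every mouse. B8 had a typical distance from the controls of 0.15 (median absolute log2 difference of the members) beside 0.13 over all genes, whereas B1, B7 and B9 had 0.54 to 0.58 beside 0.45 to 0.58. The members thus moved about as far as other genes in the same libraries.

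Gene span and GC content moved with these differences. Over all genes tested, the median log2 fold change was -0.22 for the 8953 genes spanning less than 10 kb, -0.08 between 10 and 30 kb, 0.20 between 30 and 100 kb and 0.37 for the 2480 genes spanning more than 100 kb. By GC content of the longest transcript it ran from 0.26 below 40% to -0.46 at 60% and above. The trend was present in B1, B7 and B9 and not in B8, whose medians by span lay between -0.02 and 0.00. *Epha3*, *Epha4*, *Epha5*, *Epha6*, *Epha7* and *Efna5*, the members above 100 kb, had log2 fold changes of 0.10 to 1.30, and the shorter *Epha8*, *Efna2*, *Efna3* and *Efna4* had -0.64 to -0.34. Across the 10 members, which share the same 7 libraries, the Spearman correlation of log2 fold change with span was 0.78, beside 0.30 across 21775 genes, and with GC content -0.55, beside -0.31.

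**Figure D3:**
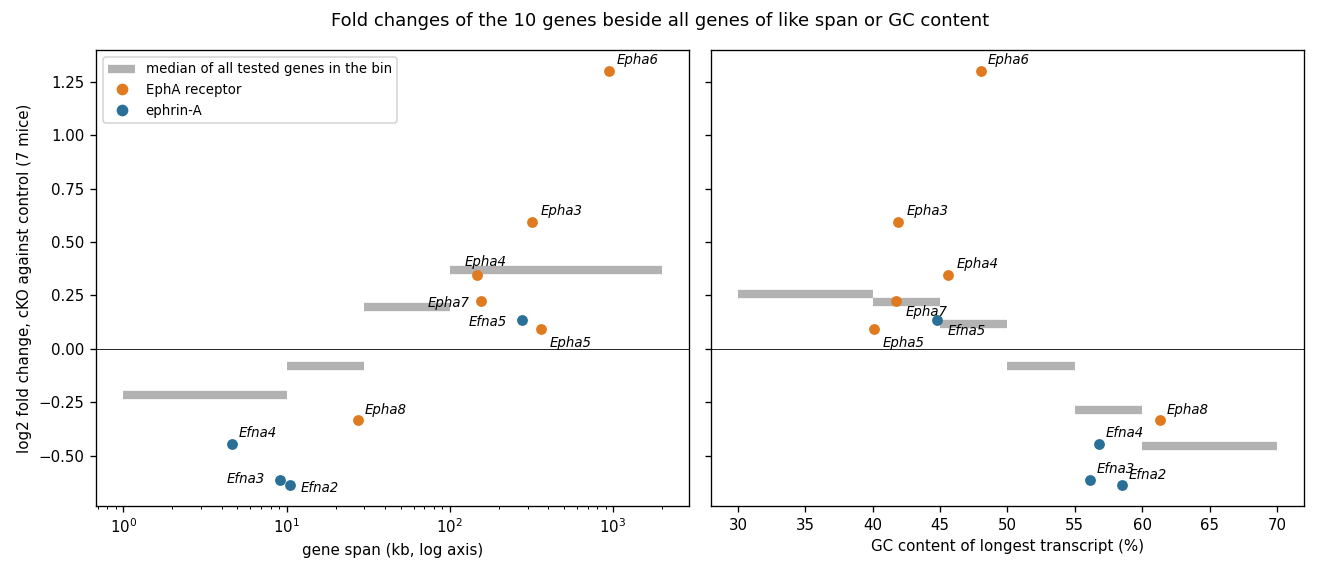
Log2 fold change of the 10 members (all 7 mice) against gene span in kb (left, log axis) and GC content of the longest transcript in percent (right), with grey bars at the median of all tested genes in each bin. The 6 members above 100 kb lie above 0 and the 4 shorter ones below it, as do the medians of all genes in their bins.

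A smooth trend of GC content, exon length and span was therefore taken out of each library, and the test was run again. This step would also take out any true difference that follows these properties. The correction called 0 of 10 members with all 7 mice, beside 0.00458% of all genes, and 4 without B8, beside 32.7%. After it, *Epha6* was at 1.00 with all mice (edgeR adjusted p = 0.138) and at 1.20 without B8 (edgeR adjusted p = 0.00368). *Efna3* was at -0.28 (edgeR adjusted p = 0.152) and at -0.30 without B8 (edgeR adjusted p = 0.0386), still below every control in 4 of 4 cKO mice. *Efna2* came to -0.17 (edgeR adjusted p = 0.315), and to -0.11 without B8, and its groups were separated only by the gap between A2 at -0.08 and B9 at -0.09. The corrected difference was largest in B8, at -0.33, against -0.14 and -0.11 in B1 and B7. *Epha3* came to 0.03 and *Epha8* to -0.06. *Epha4*, *Epha5* and *Epha7* changed sign, to -0.12, -0.57 and -0.33, and *Epha7* then lay below every control in 4 of 4 cKO mice. In all, 3 of 10 members did not overlap after the correction, beside 14.8% of all genes. Without B8, *Epha5* was at -0.76 (edgeR adjusted p = 6.3e-04) and *Epha7* at -0.39 (edgeR adjusted p = 0.00971), so that the direction of these receptors depends on whether the trend is kept. *Epha5* has the longest exon sequence of the members, 16739 bases.

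**Figure D4:**
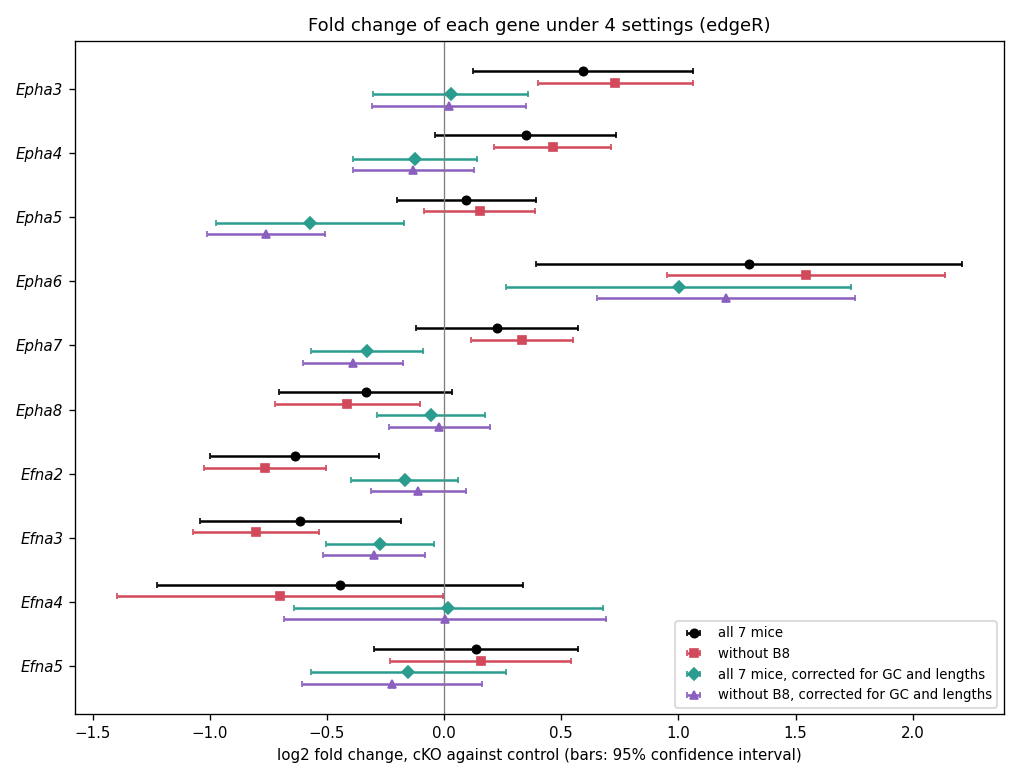
Log2 fold change of each member, cKO against control, with 95% confidence intervals from edgeR, for all 7 mice, without B8, and for both sets after the correction for GC content, exon length and gene span. *Epha3* and *Epha6* stay above 0 and *Epha8*, *Efna2* and *Efna3* below 0 in all 4 settings, with *Epha3* and *Epha8* near 0 after the correction. *Epha4*, *Epha5*, *Epha7*, *Efna4* and *Efna5* change sign with the correction, *Efna4* to a value near 0.

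Age was unequal between the genotypes, so the cKO mice of each age were also set against the controls. Among P4 mice only (A2 and A6 against B1 and B8), edgeR called no member, beside 0.0% of all genes, and none had an unadjusted p under 0.05, beside 1.18%. There *Efna2* was at -0.40, *Efna3* at -0.32, *Epha6* at 0.76 and *Epha8* at -0.06. Between the controls and the P2 cKO mice, edgeR called 8 members, beside 46.9% of 22227 genes, and between the controls and the P4 cKO mice it called none, beside 0.00476%. The P2 set holds no B8, and no control was at P2, so that age and genotype cannot be told apart there. The P2 libraries B7 and B9 were also the deepest, with 67792192 and 87572085 counts on genes against at most 40411968 in the others, and had the lowest shares of pairs naming no gene, 31.76% and 30.98%. The part of depth in the P2 results was not tested. *Efna2* was at -0.86 with the P2 mice and -0.45 with the P4 mice, and *Efna3* at -0.93 and -0.35. *Epha6* was at 1.50 and 1.03 and *Epha8* at -0.60 and -0.12. *Efna5* was higher with the P2 mice, at 0.34 (edgeR adjusted p = 0.0343), and at -0.12 with the P4 mice. With postnatal day as a covariate over all 7 mice, *Efna2* was at -0.56 and *Efna3* at -0.50 (edgeR adjusted p = 0.272 for both).

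Within the cKO mice, the P2 pair was compared with the P4 pair. No member passed the edgeR test at an adjusted p under 0.05, beside 0.0% of all genes, and 2 had an unadjusted p under 0.05, beside 15.7% of 22725 genes. DESeq2 called none either, beside 0.88% of the 35103 genes with a DESeq2 p. The 2 were *Epha8*, at -0.46 (SE 0.19), and *Efna3*, at -0.56 (SE 0.23), both lower at P2, with an edgeR adjusted p of 0.306 and 0.307. *Efna5* was at 0.49 (SE 0.22, edgeR adjusted p = 0.324). Without B8, which leaves B1 as the only P4 mouse, *Efna5* was 0.74 higher at P2 (SE 0.15, edgeR adjusted p = 0.0265) and the only member called, beside 0.65% of all genes. Without B1, the only P4 mouse is B8, which lay among the controls on the first principal component, so that age and the difference of B8 cannot be told apart. There *Epha8* was at -0.45, *Efna3* at -0.74 and *Efna5* at 0.29. The lone P4 mouse is assumed in both cases to vary as the P2 pair does.

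Of the other genes of the 2 families, *Epha10* was abundant and the rest were low. In controls *Epha10* had 22.3 ± 1.74 RPKM (SD, n = 3), above *Epha4*, *Epha5* and *Epha7*. In cKO mice it had 15.8 ± 4.6 RPKM (SD, n = 4), and the receptor sums and shares above leave it out. *Epha10*, a receptor without kinase activity, had 152, 154 and 175 CPM in controls and 129, 97.9, 152 and 76.7 CPM in B1, B7, B8 and B9, with no overlap but with B8 close to the controls. Its log2 fold change was -0.50 (SE 0.21, edgeR adjusted p = 0.157), and -0.67 (SE 0.16, edgeR adjusted p = 0.00483) without B8. *Epha1*, *Epha2* and *Efna1* were between 1.29 and 4.22 CPM in all mice. Of the 8 EphB receptors and ephrin-B ligands, which guide axons along the other axis of the map, edgeR and DESeq2 called none with all 7 mice, none had an unadjusted edgeR p under 0.05, and edgeR called 3 without B8, beside 46.7% of all genes. Their median log2 fold change was 0.02. The groups did not overlap for 1 of 8 (*Ephb6*), beside 14.0% of all genes, and for 4 of 8 without B8, beside 56.2%.

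Of 34 genes listed for EphA signaling (effectors, proteases, phosphatases, co-receptors and the regulators *En1* and *En2*), 33 were matched and tested. None passed the edgeR test with all 7 mice, and 17 had an unadjusted p under 0.05, beside 30.4% of all genes. Their median log2 fold change was 0.30, beside 0.00 over all genes. DESeq2 called 5 of the 33 higher and 1 lower in cKO mice, beside 3.9% and 1.6% of the 36248 genes with a DESeq2 p. Without B8, edgeR called 15 higher and 5 lower, beside 23.7% and 23.1%. The 4 genes above 0 with the lowest p were *Sipa1l1*, a spine protein that binds Eph receptors, at 0.75, *Tiam1*, an exchange factor for Rac, at 0.90, *Ntrk2*, the BDNF receptor, at 0.62, and *Crkl*, an adaptor protein, at 1.08. Their edgeR adjusted p was 0.138 each, and between 0.0238 and 0.0387 with DESeq2. Below 0 they were *Cdk5*, a kinase downstream of EphA4, at -0.68 (edgeR adjusted p = 0.138, DESeq2 0.0419), *Arhgef15*, at -0.46 (0.138), *Ngef* (ephexin), an exchange factor bound by EphA receptors, at -0.32 (0.191), and *Rhoa*, at -0.28 (0.195). After the correction for GC content and lengths the median of the 33 genes was 0.01, *Ntrk2* was at 0.00 and *Crkl* at 0.90. When span was left out of the correction the median was 0.12.

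Over the 7 libraries, the genes whose log2 CPM followed the most abundant receptor most closely were, for *Epha8*, *Fbxo46*, *Fibcd1* and *Oma1* (Pearson r of 0.996, 0.995 and 0.989). For *Efna2*, the most abundant ligand, they were *Ptpn5*, *Fhl2* and *Gcat* (0.995, 0.993 and 0.992). Of the 17048 genes averaging 1 CPM or more, 5.94% had an r of 0.9 or more with *Epha8* and 16.7% with *Efna2*. With so few libraries a shared split gives a high r. For *Epha8* the split was between the P2 mice B7 and B9 and the other 5 libraries.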

How the data were processed

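The authors prepared polyA-selected, strand-specific libraries from the dorsal midbrain of 7 mice, aligned the paired reads to GRCm38.p5 with TopHat2 and Bowtie 2, counted them per gene with HTSeq on GENCODE vM15, and deposited raw counts without normalization. Entries that name no gene (30.98% to 38.18% of the counted pairs) were left out. Symbols, positions, exon lengths and GC content came from GENCODE M21, which matched 52489 of 52636 identifiers.

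Counts were fitted across all genes with edgeR 4.0.16 in R 4.3.3 (filterByExpr with minimum count 10 and total 15, TMM, glmQLFit, glmQLFTest), with genotype alone in the model, and genes were called at a Benjamini-Hochberg adjusted p below 0.05. CPM uses TMM library sizes, RPKM divides by the union of exons, and log2 CPM adds a prior count of 2. Standard errors were derived from the coefficient and the F statistic. The study's tool, DESeq2 (1.42.0), and limma-voom (3.58.1) were alternatives, with RLE factors, a filter of 1 count in any library, postnatal day, single ages and leaving out each mouse. DESeq2 without B8 and the corrections for GC content and length (mgcv 1.9.3) were chosen after seeing the data.

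Named were all members, the other genes of both families, the EphB family, *Brn3b*, up to 4 listed pathway genes per direction by lowest p, and the 3 genes most like the most abundant receptor and ligand. The members and lists were chosen with earlier results of these data known. Intervals over mice rest on 3 and 4 animals.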

Additional observations from a re-analysis of the deposited data

Results flagged for a closer look

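In the 4 cKO mice, B8 stood apart for *Efna4*, at 2.54 CPM against 1.35 to 1.47 CPM in B1, B7 and B9, within the 1.46 to 3.22 CPM of the controls. The distance to B7, the closest cKO mouse, divided by the whole range of the 4 values was 0.898, which is past the critical value of Dixon's test. Chance gives such a gap in about 1 in 20 groups, and 10 genes were examined.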

How the results depend on the processing

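B8 set most of the calls. Over leaving out each mouse in turn, the number of members called lay between 0 and 7, that of the 33 pathway genes between 0 and 20 and that of the 8 EphB and ephrin-B genes between 0 and 3, with every count above 0 coming from the fit without B8. In the comparison of P2 with P4 cKO mice it lay between 0 and 7. DESeq2 called 3 members and 6 pathway genes, and without B8 it called 7 members, 21 pathway genes and 3 EphB genes. limma-voom with sample quality weights, which gave B8 a weight of 0.167, called 7, 22 and 3, beside 48.5% of all genes, and the controls against the P2 cKO mice gave 8, 23 and 4, beside 46.9%. Without B8, the correction for GC content, exon length and span called 4 members, 14 pathway genes and 2 EphB genes, and that for GC content and exon length alone called 4 members and 15 pathway genes, beside 32.7% and 33.7% of all genes. RLE factors, the looser filter, postnatal day, the P4 mice alone and the controls against the P4 cKO mice called 0 members each.

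Log2 fold changes kept their sign under all 20 alternatives for *Epha3*, *Epha6*, *Epha8*, *Efna2* and *Efna3*, with ranges of 0.0213 to 0.77 for *Epha3*, -0.60 to -0.0184 for *Epha8*, 0.76 to 1.55 for *Epha6*, -0.86 to -0.11 for *Efna2* and -0.93 to -0.28 for *Efna3*. With the full correction, with all mice and without B8, *Epha4* turned to -0.12 and -0.13, *Epha5* to -0.57 and -0.76, *Epha7* to -0.33 and -0.39, *Efna4* to 0.0185 and 0.0023, and *Efna5* to -0.15 and -0.22. With GC content and exon length alone, *Epha4* turned to -0.0539 and -0.0381, *Epha5* to -0.54 and -0.72, *Epha7* to -0.28 and -0.32, and *Efna5* to -0.0095 and -0.0306. *Efna5* also turned with postnatal day (-0.0389), with the P4 cKO mice (-0.12) and among P4 mice only (-0.0775), where *Efna4* turned too (0.089). The corrections change sign by removing the trend of these properties, and the cause of the trend was not tested. No paired analysis was possible because no number occurs in both genotypes. *Efna4* had 38 to 129 counts per library, the fewest of the members.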
